A study of Mus musculus with 14 samples.

Results

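Complement component and receptor genes were followed in the dorsal hippocampus of THY-Tau22 mice, a model of tauopathy, by RNA-seq. The 9 genes were chosen by name and cover the C1q chains (C1qa, C1qb, C1qc), the downstream components C4b, C3 and Cfb, the inhibitor Serping1 and the anaphylatoxin receptors C3ar1 and C5ar1. All 9 were present in both count tables, which list 26570 and 25933 genes, and all 9 passed the filter on low counts in each table. THY-Tau22 mice are heterozygous and are kept on a C57BL6/J background (C57BL6 in the labels). They carry mutated human Tau under the Thy1.2 promoter, which drives it in neurons. All mice were males of 8 months. The basal table holds untrained WT (n = 3) and THY-Tau22 (n = 2) mice left in their home cage. The learning table holds WT mice given saline and either left in their home cage (WT VEH_HC, n = 3) or trained in the Morris water maze (WT VEH, n = 2), and trained THY-Tau22 mice given either the empty carbon nanosphere vehicle CSP (TAU VEH, n = 2) or CSP-TTK21, the same spheres carrying an activator of the CBP and p300 acetyltransferases (TAU MOL, n = 2). TAU VEH and WT VEH therefore differed in the injected vehicle as well as in genotype. The learning mice kept here are those left after the study removed mice of a single litter with deviating profiles. The paper states that this criterion was set a posteriori. Replicates are separate samples in the labels, which do not say that each came from its own mouse. The paper speaks of the removed learning samples as mice. The p-values measure the spread between these samples, in the learning table after that removal.

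Complement is a cascade of secreted proteins that tags targets for removal. C1q, built of the A, B and C chains, binds the target and starts the classical pathway, in which C4 and then C3 are cleaved and deposited, while factor B amplifies C3 cleavage in the alternative pathway. In the brain, C1q is made mainly by microglia and C4 largely by astrocytes and other glia, and tagged synapses can be removed by microglia through complement receptors.

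The 3 C1q genes lie side by side on the minus strand of mouse chromosome 4 (mm9), C1qb from 136436044 to 136442102, C1qc from 136445719 to 136448980 and C1qa from 136451832 to 136454718. C4b (34865325 to 34880827), Cfb (34993319 to 34999463) and C3 (57343397 to 57367559) lie on chromosome 17. Serping1 is on chromosome 2 (84605544 to 84615601), C3ar1 on chromosome 6 (122797156 to 122806179) and C5ar1 on chromosome 7 (16832092 to 16844889), all on the minus strand. RefSeq promoters (GRCm38.p6, 250 bases before to 50 after the start) were held for 5 of the 9 genes. Those of C1qb, C1qc and C3ar1 are shown because these genes were called in the trained THY-Tau22 groups over home cage WT mice. They are printed 5′ to 3′, and the capitals mark a PU.1 core (GAGGAA, or TTCCTC on the other strand) or an AP-1 motif (TGANTCA):
C1qb, chr4:136886151-136886450, minus strand: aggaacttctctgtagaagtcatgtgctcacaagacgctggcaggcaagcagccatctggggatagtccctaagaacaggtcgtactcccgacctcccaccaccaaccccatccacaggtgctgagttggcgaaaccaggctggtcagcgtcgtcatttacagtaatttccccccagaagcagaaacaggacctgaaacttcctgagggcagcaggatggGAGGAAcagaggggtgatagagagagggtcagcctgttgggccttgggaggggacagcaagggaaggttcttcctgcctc
C1qc, chr4:136892865-136893164, minus strand: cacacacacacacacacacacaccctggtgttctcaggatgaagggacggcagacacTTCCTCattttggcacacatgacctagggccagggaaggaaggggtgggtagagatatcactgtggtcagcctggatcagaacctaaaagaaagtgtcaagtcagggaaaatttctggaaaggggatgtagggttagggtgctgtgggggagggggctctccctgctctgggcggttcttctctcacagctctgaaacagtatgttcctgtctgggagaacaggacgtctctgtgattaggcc
C3ar1, chr6:122856108-122856407, minus strand: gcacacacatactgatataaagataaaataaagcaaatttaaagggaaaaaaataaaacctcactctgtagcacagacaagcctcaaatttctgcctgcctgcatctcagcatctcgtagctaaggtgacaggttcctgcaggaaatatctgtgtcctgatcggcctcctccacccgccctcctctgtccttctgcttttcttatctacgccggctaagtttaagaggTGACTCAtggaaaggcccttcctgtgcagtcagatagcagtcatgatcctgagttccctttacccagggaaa
The PU.1 core was found 30 bases upstream of the C1qb start and, on the other strand, 193 bases upstream of the C1qc start. Of all 32851 promoters in the table, 28.3% held it on either strand. The C3ar1 promoter held no PU.1 core and 1 AP-1 motif, 22 bases upstream of the start, a motif found in 7.81% of all promoters. A STAT motif (TTCNNNGAA), present in 8.3% of all promoters, was found in none of the 5 windows, and neither were the other motifs in those of C5ar1 and C3. These matches are descriptions of the letters only.

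Libraries held 24693713 to 52180305 counted reads. Levels are given as CPM, read counts divided by the library's total after scaling for composition between the libraries of a table, and the 2 tables were scaled separately, so levels are compared only within a table. Per kilobase of exon, C1qa was the highest member in each of the 6 groups, with 60.6 ± 3.88 CPM per kb in WT VEH_HC (SD, n = 3), followed by C1qb at 35.6 ± 3.83 and C1qc at 23.1 ± 2.17 CPM per kb. The order of C1qb and C1qc rests on the exon length used, since per kilobase of its longest transcript C1qc had 37.1 CPM per kb. C4b followed at 14.4 ± 1.21 CPM per kb in WT VEH_HC. In TAU VEH, C4b (22.8 ± 4.33 CPM per kb) and C1qc (28.9 ± 5.26 CPM per kb) did not differ beyond their spread. Per kilobase of the longest transcript they had 24.1 and 46.4 CPM per kb. Reads that C4b shares with its paralog C4a were left out of the counts, so the C4b level may be too low. Serping1 (3.59 ± 1.90 CPM per kb) and C3 (1.03 ± 0.614 CPM per kb) in WT VEH_HC were lower and varied most between libraries. C5ar1, C3ar1 and Cfb lay below 1 CPM per kb in every group, and Cfb rested on only 10 to 27 reads a library.

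**Figure D1:**
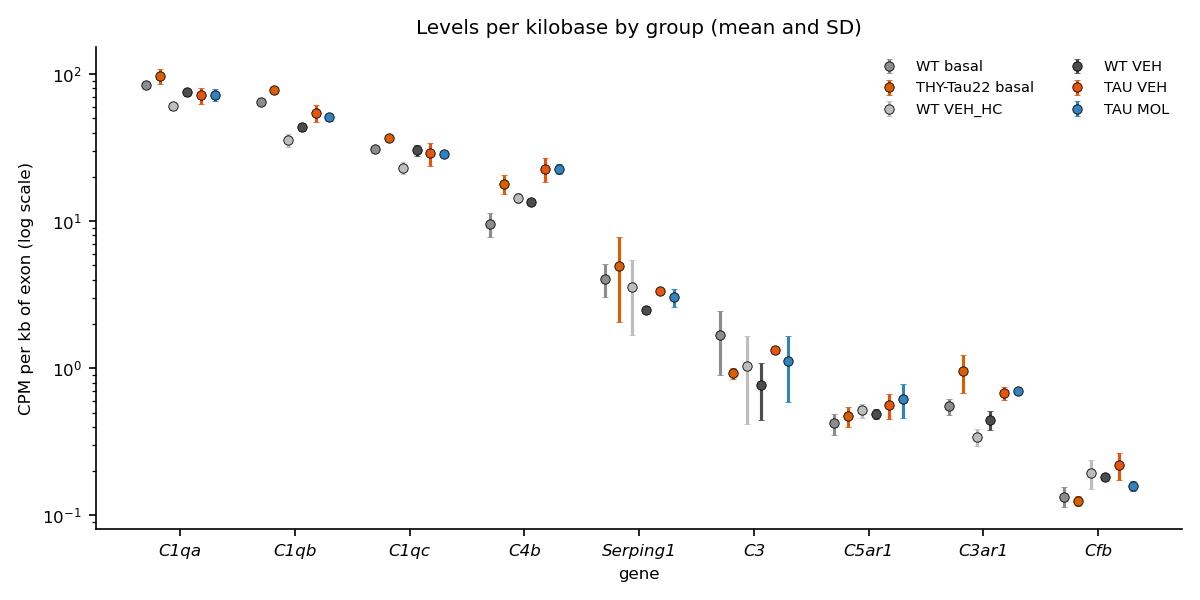
Levels of the 9 genes per kilobase of exon (CPM per kb, log scale) in the 6 groups, as mean and SD over 2 or 3 libraries. The C1q chains and C4b lie above the other 5 genes in every group.

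The first question was whether the genes differ between untrained THY-Tau22 and WT mice. C4b, the C4 gene of the classical pathway, had 63.6, 43.9 and 57.2 CPM in the WT libraries and 91.6 and 113 CPM in the THY-Tau22 libraries. The groups did not overlap, and the log2 fold change was 0.90 ± 0.16 (SE). C3ar1, the receptor for C3a, had 2.03, 2.44 and 2.64 CPM in WT and 3.29 and 4.98 CPM in THY-Tau22, again without overlap and with a log2 fold change of 0.80 ± 0.24 (SE). Without the second THY-Tau22 library the value of C3ar1 was 0.47.

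The C1q chains were also without overlap between the groups, and higher in THY-Tau22. C1qa had 90.4, 85.7 and 86.7 CPM in WT against 109 and 92.8 CPM in THY-Tau22, C1qb 72.0, 71.8 and 66.96 CPM against 87.3 and 81.9 CPM. C1qc had 60.4, 61.5 and 57.6 CPM in WT against 72.1 and 70.1 CPM in THY-Tau22. Their log2 fold changes were 0.21 for C1qa, 0.27 for C1qb and 0.25 for C1qc, each with an SE of 0.11. The value of C1qa was 0.11 without the first THY-Tau22 library and 0.32 without the second. In all, both THY-Tau22 libraries lay above all 3 WT libraries for 5 of the 9 genes, against 9.01% of all 16324 genes tested. In bulk tissue, a change in the number of cells of a type and a change in RNA per cell cannot be told apart.

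A gene is called here where its Benjamini-Hochberg adjusted p, taken over all genes tested, is below 0.05 (edgeR quasi-likelihood test) and its log2 fold change exceeds 0.2 in size. None of the 9 genes met both limits in basal mice, against 0.0245% of all genes. At an unadjusted p under 0.05, 5 of the 9 were counted, namely C4b, C3ar1, C1qb and C1qc with higher and C3 with lower values in THY-Tau22, against 4.92% of all genes at that limit. C4b had an adjusted p of 0.235 in edgeR. With DESeq2, which called 0.229% of genes, C4b was the 1 member called (adjusted p = 0.000106). The edgeR fit also called it with a lower count filter (adjusted p = 6.58e-05). The median log2 fold change was 0.25 over the members and -0.01 over all genes.

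C3, the central component that all pathways cleave, had 10.2, 4.05 and 11.6 CPM in WT and 4.47 and 5.05 CPM in THY-Tau22. The second WT library lay below both THY-Tau22 libraries, so the groups overlapped, and the log2 fold change was -0.85 ± 0.36 (SE, adjusted p = 0.901). Serping1, which encodes the C1 inhibitor, had 7.16, 11.9 and 9.36 CPM in WT against 16.3 and 6.80 CPM in THY-Tau22. The THY-Tau22 libraries bracketed the WT libraries. C5ar1, the receptor for C5a, ranged from 0.892 to 1.35 CPM and Cfb, factor B, from 0.324 to 0.440 CPM, and both overlapped between the groups.

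**Figure D2:**
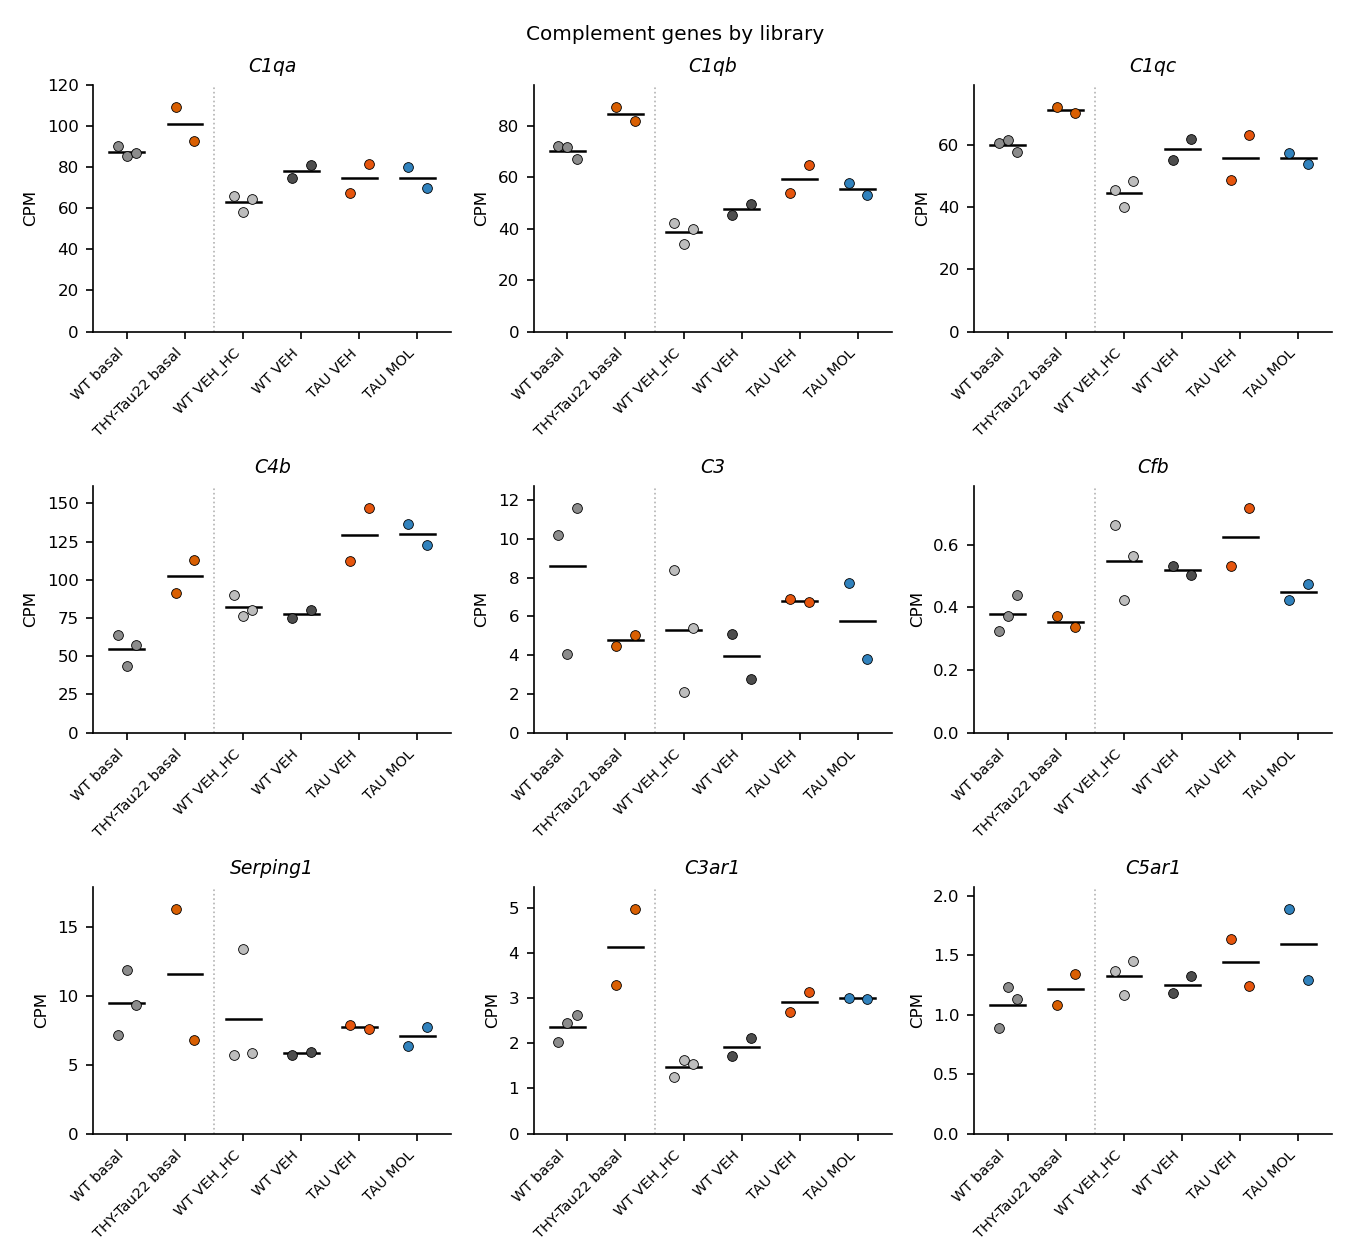
CPM of the 9 genes in each of the 14 libraries, with the group means as bars. The dotted line separates the basal from the learning table, which were scaled separately. C4b and C3ar1 were higher in every THY-Tau22 library than in every WT library of the same table, while Serping1 ran from 5.72 to 13.4 CPM within WT VEH_HC.

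After training, TAU VEH was compared with WT VEH. C4b had 74.7 and 80.0 CPM in WT VEH, below the 112 and 147 CPM of TAU VEH. The log2 fold change was 0.74 ± 0.12 (SE, adjusted p = 0.00214, edgeR), and C4b was the 1 of 9 genes called, against 14.4% of all 16820 genes. C3ar1 had 1.72 and 2.12 CPM against 2.70 and 3.13 CPM, a log2 fold change of 0.60 ± 0.20 that did not pass (adjusted p = 0.0695, and 0.0216 with scaling by library size alone). Both libraries of TAU VEH lay above both of WT VEH for 6 of the 9 genes, namely C4b, C3ar1, C1qb, C3, Cfb and Serping1, against 28.5% of all genes. Cfb was nearly tied, with 0.533 CPM (27 reads) in the first TAU VEH library and 0.532 CPM (22 reads) in the first WT VEH library. The median log2 fold change was 0.32 over the members and 0.00 over all genes.

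Of the C1q chains, C1qb did not overlap between the groups here, and the differences between the chains were not tested. C1qb had 45.3 and 49.6 CPM in WT VEH and 53.8 and 64.9 CPM in TAU VEH, a log2 fold change of 0.32 ± 0.11 (SE, adjusted p = 0.0873, edgeR). It passed with 5 of 9 other settings, namely DESeq2, library size alone, at least 1 count, GC and length offsets and the fit of 2 groups (adjusted p = 0.00566 to 0.0302), and did not pass without any 1 of the 4 libraries (adjusted p = 0.0711 to 0.454). Without the second TAU VEH library its log2 fold change was 0.18. C1qa had 74.9 and 81.3 CPM against 67.7 and 81.5 CPM, and C1qc had 55.2 and 61.9 CPM against 48.6 and 63.0 CPM. Both overlapped between the groups, with log2 fold changes of -0.07 ± 0.10 and -0.07 ± 0.12 (SE). The signs of C1qa and C1qc turned to 0.08 and 0.07 with scaling by library size alone, which also moved the median of all genes to 0.15. They were 0.16 and 0.07 with GC and length offsets and 0.06 and 0.10 without the first TAU VEH library, where the median of all genes stayed at 0.01 and 0.00, so no direction is given for these genes.

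Ratios within a library do not depend on scaling between libraries. The CPM ratio of C1qb to C1qc was 1.11 and 1.03 in TAU VEH, and TAU MOL had 1.01 and 0.986. In WT VEH it was 0.821 and 0.801, and in WT VEH_HC 0.924, 0.852 and 0.830, so all 4 trained THY-Tau22 libraries lay above all 5 WT libraries of the learning table. In the basal table the ratio was 1.19, 1.17 and 1.16 in WT against 1.21 and 1.17 in THY-Tau22, which overlapped. The ratio of C1qc to C1qa ran from 0.686 to 0.773 over the 9 learning libraries, and the groups overlapped. These ratios were computed after the values were seen and carry no test. The rank correlation of gene GC content with a library's deviation from its table's mean was negative in the 4 trained THY-Tau22 libraries (-0.62 to -0.40) and positive in the 5 WT learning libraries (0.08 to 0.45). The exons of C1qb and C1qc have a GC content of 57.4% and 56.0%, and the part of GC bias in the ratio was not tested. C3ar1 had the lowest exon GC content of the 9 genes, 43.0%. In the basal table the correlation was 0.07 to 0.32 in WT, and 0.48 and -0.60 in the first and second THY-Tau22 library. The part of GC bias in the C3ar1 values was not tested.

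**Figure D3:**
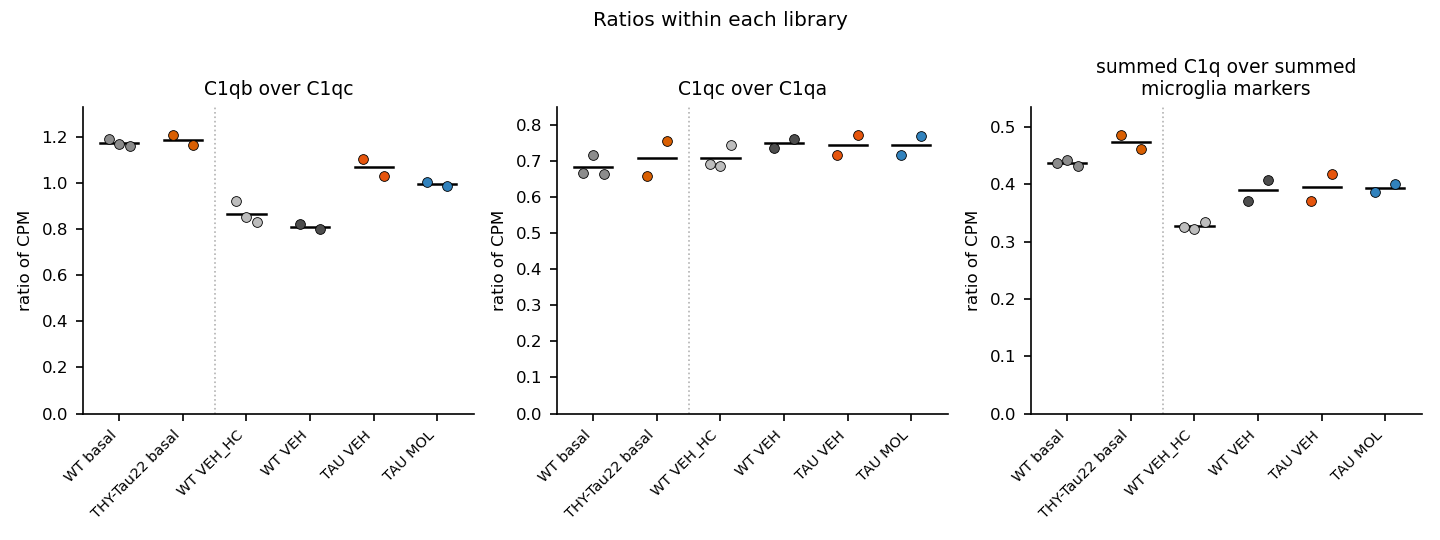
Ratio of CPM within each library, for C1qb over C1qc, C1qc over C1qa, and the summed C1q chains over the summed 12 microglia markers, with group means as bars. The C1qb to C1qc ratio was 0.986 to 1.11 in trained THY-Tau22 mice and 0.801 to 0.924 in WT mice of the learning table.

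C3 had 5.10 and 2.75 CPM in WT VEH and 6.89 and 6.72 CPM in TAU VEH, with a log2 fold change of 0.79 ± 0.51 (SE, adjusted p = 0.363, edgeR). Serping1 had 5.70 and 5.96 CPM against 7.90 and 7.62 CPM, a log2 fold change of 0.41 ± 0.34 (SE). Serping1 passed in the fit of those 2 groups alone (adjusted p = 0.0238), and stood at -0.98 with the sum of choroid plexus markers as a covariate. C5ar1 and Cfb each had a log2 fold change of 0.23, with SEs of 0.26 and 0.34. Without the first TAU VEH library C5ar1 stood at -0.01, and over the other settings Cfb ran from 0.04 to 0.61. None of these 4 passed in the fit of all groups. For C3 the value was 1.31 without the first WT VEH library and 0.42 without the second, and it passed in the fit of those 2 groups alone (adjusted p = 0.0121) and with at least 1 count (adjusted p = 7.1e-05).

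The genotype difference after training was then tested against that in basal mice, in a joint fit of all 14 libraries. None of the 9 genes was called (edgeR), against 0.129% of 17026 genes, and DESeq2 called none of the 9 either. For C4b the 2 differences were 0.12 apart on the log2 scale, lower after training, with a 95% interval from -0.57 to 0.33. At an unadjusted p under 0.05 there was 1 member, C3, with a difference of 1.67 ± 0.72 (SE, adjusted p = 0.606, edgeR), against 7.78% of all genes at that limit. The experiment and the training cannot be told apart in this test, and TAU VEH and WT VEH received different vehicles.

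TAU MOL was compared with the same WT VEH libraries as TAU VEH. C4b had 137 and 123 CPM in TAU MOL, a log2 fold change over WT VEH of 0.75 ± 0.12 (SE, adjusted p = 0.00996, edgeR). It was the 1 of 9 genes called, against 5.63% of all genes. The call was lost without either WT VEH library and without either TAU MOL library (adjusted p = 0.0676 to 0.105), with log2 fold changes of 0.67 to 0.82. C3ar1 had 3.00 and 2.99 CPM, a log2 fold change of 0.65 ± 0.20 (SE, adjusted p = 0.0821, and 0.0416 with library size alone). C1qb had 57.7 and 53.2 CPM, a log2 fold change of 0.23 ± 0.11 (SE, adjusted p = 0.302). C1qa had 79.9 and 70.0 CPM and C1qc 57.4 and 53.9 CPM, with log2 fold changes of -0.06 and -0.07, both above 0 with scaling by library size alone and with GC and length offsets. Both TAU MOL libraries lay above both of WT VEH for 4 of the 9 genes, against 25.6% of all genes. These were C4b, C3ar1, C1qb and Serping1. Cfb was lower in both, with 0.423 and 0.474 CPM against 0.503 and 0.532 CPM, against 26.9% of all genes.

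Whether CSP-TTK21 changed the genes was read from TAU MOL against TAU VEH, both trained THY-Tau22 groups. None of the 9 genes was called (edgeR), as for all genes (0%), and none of the 9 had an unadjusted p under 0.05. DESeq2 called none of the 9. For C4b the log2 fold change was 0.00 with a 95% interval from -0.25 to 0.26. For C3ar1 it was 0.05, with an interval from -0.37 to 0.47. For C1qa, C1qb and C1qc the values were 0.01, -0.09 and 0.00, and the intervals together ran from -0.34 to 0.27. The intervals of C3 (-1.30 to 0.84), Cfb (-1.19 to 0.30), Serping1 (-0.87 to 0.59) and C5ar1 (-0.42 to 0.67) were wider, so only large changes of these 4 would have been seen. Cfb had 0.533 and 0.717 CPM in TAU VEH and 0.423 and 0.474 CPM in TAU MOL. It was the 1 member whose groups did not overlap, while 17.4% of all genes were lower in both TAU MOL libraries.

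**Figure D4:**
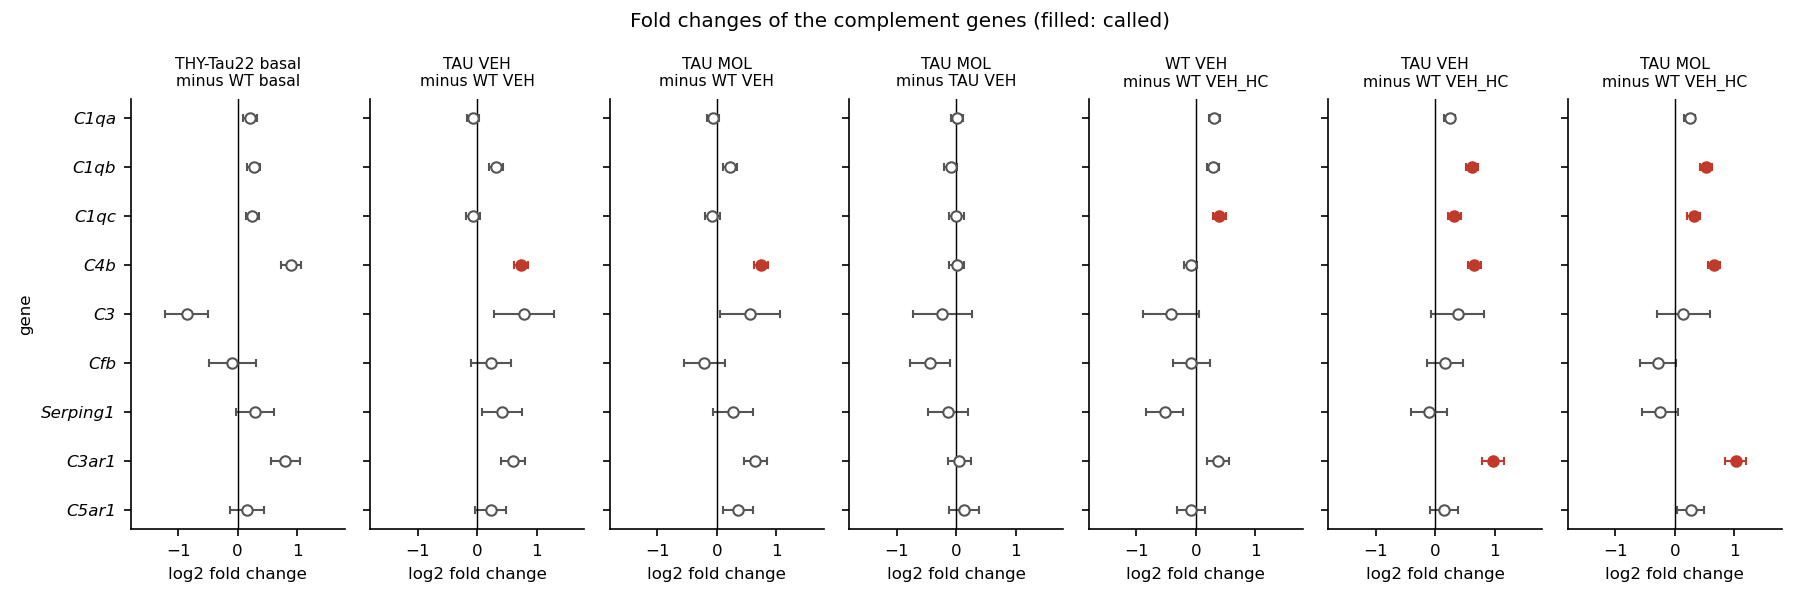
Log2 fold changes of the 9 genes (edgeR) in 7 comparisons, with the SE as error bars. Filled red points are called (adjusted p below 0.05, log2 fold change over 0.2 in size). The 3 comparisons with WT VEH_HC share those libraries, and so do the comparisons that share WT VEH or TAU VEH. C4b is at 0.74 and 0.75 over WT VEH and at 0.00 between TAU MOL and TAU VEH.

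Training in WT mice was read from WT VEH against WT VEH_HC, both given saline. The C1q chains and C3ar1, 4 of the 9 genes, were higher in both trained libraries than in all 3 home cage libraries, against 23% of all genes. C1qc had 45.6, 40.0 and 48.2 CPM in WT VEH_HC, below the 55.2 and 61.9 CPM of WT VEH, with a log2 fold change of 0.39 ± 0.11 (SE, adjusted p = 0.0493, edgeR). It was the 1 of 9 genes called, against 8.4% of all genes. The call was lost with median-of-ratios scaling, in the fit of those 2 groups alone, without either WT VEH library and without the first or second WT VEH_HC library, with log2 fold changes of 0.31 to 0.47. C1qa had 65.9, 58.4 and 64.7 CPM in WT VEH_HC, a log2 fold change of 0.31 ± 0.09 (SE, adjusted p = 0.0591). C1qb had 42.1, 34.1 and 40.0 CPM, a log2 fold change of 0.29 ± 0.10 (SE, adjusted p = 0.0924). Both passed with DESeq2 (adjusted p = 0.0185 for C1qa and 0.046 for C1qb) and with at least 1 count (0.00278 and 0.00845). C1qa also passed with GC and length offsets (adjusted p = 0.044). With the choroid plexus covariate the C1qc call was lost too, at a log2 fold change of -0.06. Over the other settings the lowest values were 0.06 for C1qa and 0.01 for C1qb. Choroid plexus markers summed to 1584 to 2439 CPM in WT VEH and 79.5 to 237 CPM in WT VEH_HC.

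C4b had 89.9, 76.6 and 80.2 CPM in WT VEH_HC, overlapping with WT VEH, and a log2 fold change of -0.09 with a 95% interval from -0.33 to 0.15. C3ar1 had 1.25, 1.63 and 1.54 CPM in WT VEH_HC, all below WT VEH, with a log2 fold change of 0.37 ± 0.19 (SE, adjusted p = 0.219, edgeR). Serping1 (-0.53 ± 0.31), C3 (-0.41 ± 0.47), C5ar1 (-0.08 ± 0.23) and Cfb (-0.07 ± 0.31) did not pass. Serping1 passed with at least 1 count (adjusted p = 0.0027), and without the second WT VEH_HC library it stood at 0.01. C3 stood at 0.08 without the first WT VEH_HC library. The median over the members was -0.07, and over all genes 0.00.

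The trained THY-Tau22 groups differed from WT VEH_HC in genotype, vehicle and training at once. In TAU VEH 4 of 9 genes rose over WT VEH_HC, against 16.2% of all genes that rose and 34.4% called in either direction. They were C3ar1 with a log2 fold change of 0.97 ± 0.18 (SE), C4b with 0.65 ± 0.11, C1qb with 0.61 ± 0.10 and C1qc with 0.32 ± 0.11 (adjusted p = 0.00186, 0.000893, 0.000982 and 0.0434, edgeR). TAU MOL also had 4 of 9 called, all higher, against 14% of all genes that rose and 28.9% called in either direction. They were C3ar1 (1.02 ± 0.18), C4b (0.66 ± 0.11), C1qb (0.52 ± 0.10) and C1qc (0.32 ± 0.11). C1qa missed the threshold in both, at 0.24 ± 0.09 and 0.25 ± 0.09 (adjusted p = 0.0657 and 0.0619). In both it passed with DESeq2 (adjusted p = 0.0293 and 0.0253), with library size alone, with at least 1 count and with GC and length offsets, and in TAU MOL also in the fit of 2 groups (adjusted p = 0.0448). In TAU VEH it also passed without the first TAU VEH library (adjusted p = 0.0349), and without the second its log2 fold change was 0.10. Without the first TAU MOL library it was 0.15 in TAU MOL. The call of C1qc in TAU VEH was lost without its second library, with a log2 fold change of 0.12 (adjusted p = 0.476), and without the first or second WT VEH_HC library (adjusted p = 0.0622 and 0.0939). In TAU MOL it was lost without either TAU MOL library and without the first or second WT VEH_HC library (adjusted p = 0.0671 to 0.227). C3ar1, C4b and C1qb kept their calls without any 1 library in both comparisons.

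Marker lists of cell types were summed in each library beside these results. The 12 microglia markers summed to 489 to 510 CPM in WT basal and 529 to 553 CPM in THY-Tau22 basal. In the learning table they summed to 410 to 473 CPM in WT VEH_HC, 472.1 to 472.5 CPM in WT VEH, 459 to 500 CPM in TAU VEH and 443 to 504 CPM in TAU MOL. None of the 12 rose in TAU VEH over WT VEH, against 3.61% of all genes. Tmem119, a marker of resident microglia, was the 1 that fell, by 0.35 on the log2 scale (edgeR), against 10.8% of all genes. Between WT VEH and WT VEH_HC, 1 of the 12 was called, higher, against 8.4% of all genes called in either direction. The list's median was 0.21. Over WT VEH_HC, 4 of the 12 rose in TAU VEH and 2 in TAU MOL, against 16.2% and 14% of all genes. The list's medians there were 0.09 and 0.06. Divided by the microglia sum, the summed C1q chains were 0.323 to 0.335 in WT VEH_HC, 0.371 to 0.408 in WT VEH, 0.371 to 0.418 in TAU VEH and 0.387 to 0.400 in TAU MOL. The home cage libraries thus lay below all trained libraries in this ratio too. In the basal table the ratio was 0.432 to 0.443 in WT and 0.463 to 0.486 in THY-Tau22, without overlap.

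The 11 astrocyte markers summed to 4905 to 5116 CPM in WT basal and 5451 to 6592 CPM in THY-Tau22 basal, and to 4233 to 4543 CPM in WT VEH, 4304 to 4504 CPM in WT VEH_HC, 5303 to 5410 CPM in TAU VEH and 5057 to 5668 CPM in TAU MOL. They were thus higher in every THY-Tau22 library than in every WT library of the same table, as C4b was. Of the 11, 3 rose and 0 fell in TAU VEH over WT VEH, against 3.61% and 10.8% of all genes. The median log2 fold change of the list was 0.15 there. In TAU MOL over WT VEH 2 rose, against 0.612% of all genes, with a median of 0.10. Over WT VEH_HC, 6 rose and 1 fell in TAU VEH, against 16.2% and 18.2% of all genes. In TAU MOL 5 rose and 1 fell over WT VEH_HC, against 14% and 14.9% of all genes. None was called in basal mice (edgeR), against 0.0245% of all genes, and the median was 0.06. At an unadjusted p under 0.05 there were 2 of the 11, against 4.92% of all genes. Gfap, an intermediate filament of reactive astrocytes, rose in TAU VEH over WT VEH by a log2 fold change of 0.70 ± 0.10 (SE, adjusted p = 0.00143, edgeR). Its part in the C4b result was not tested. Border macrophage and leukocyte markers (12 genes) summed to 2.39 to 7.23 CPM over all libraries, with Ly6g and Ms4a1 at 0 or 1 read. That sum was 3.86 to 6.15 CPM in WT basal, 6.77 to 7.23 CPM in THY-Tau22 basal, 2.39 to 2.62 CPM in WT VEH, 2.43 to 5.30 CPM in WT VEH_HC, 3.89 to 4.45 CPM in TAU VEH and 3.18 to 3.64 CPM in TAU MOL. Its part in the C3ar1 values was not tested.

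In the basal table Serping1 was highest in the first THY-Tau22 library (16.3 CPM). There 8 meningeal and perivascular fibroblast markers (without Igf2, which choroid plexus also expresses) summed to 151 CPM, against 68.2 to 102 CPM in the other basal libraries. In the learning table it was highest in the second WT VEH_HC library (13.4 CPM, against 5.72 and 5.87 CPM in the other home cage libraries), where these markers summed to 141 CPM, against 65.5 to 84.9 CPM in the other learning libraries. Without the first THY-Tau22 basal library, the log2 fold change of Serping1 was -0.45, and it was 0.79 without the second. Without the second WT VEH_HC library, Serping1 rose in TAU VEH over WT VEH_HC by a log2 fold change of 0.42 (adjusted p = 0.0199, edgeR), where it had stood at -0.11 with all libraries. The part of these cells in Serping1 was not tested.

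The 14 choroid plexus markers summed to 1584 to 2439 CPM in WT VEH, 79.5 to 237 CPM in WT VEH_HC, 242 to 288 CPM in TAU VEH and 714 to 782 CPM in TAU MOL. In the basal table they summed to 277 to 441 CPM in WT and to 405 and 1323 CPM in THY-Tau22. The covariate used was the mean log2 CPM of these 14 markers, which nearly follows the groups of the learning table. With it C4b had a log2 fold change of 0.80 in TAU VEH over WT VEH (adjusted p = 0.302, edgeR) and 0.78 in TAU MOL (adjusted p = 0.172). With it C1qc in WT VEH over WT VEH_HC stood at -0.06. Hippocampal neuron markers summed to 11930 to 19730 CPM, as the tissue label has it.

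**Figure D5:**
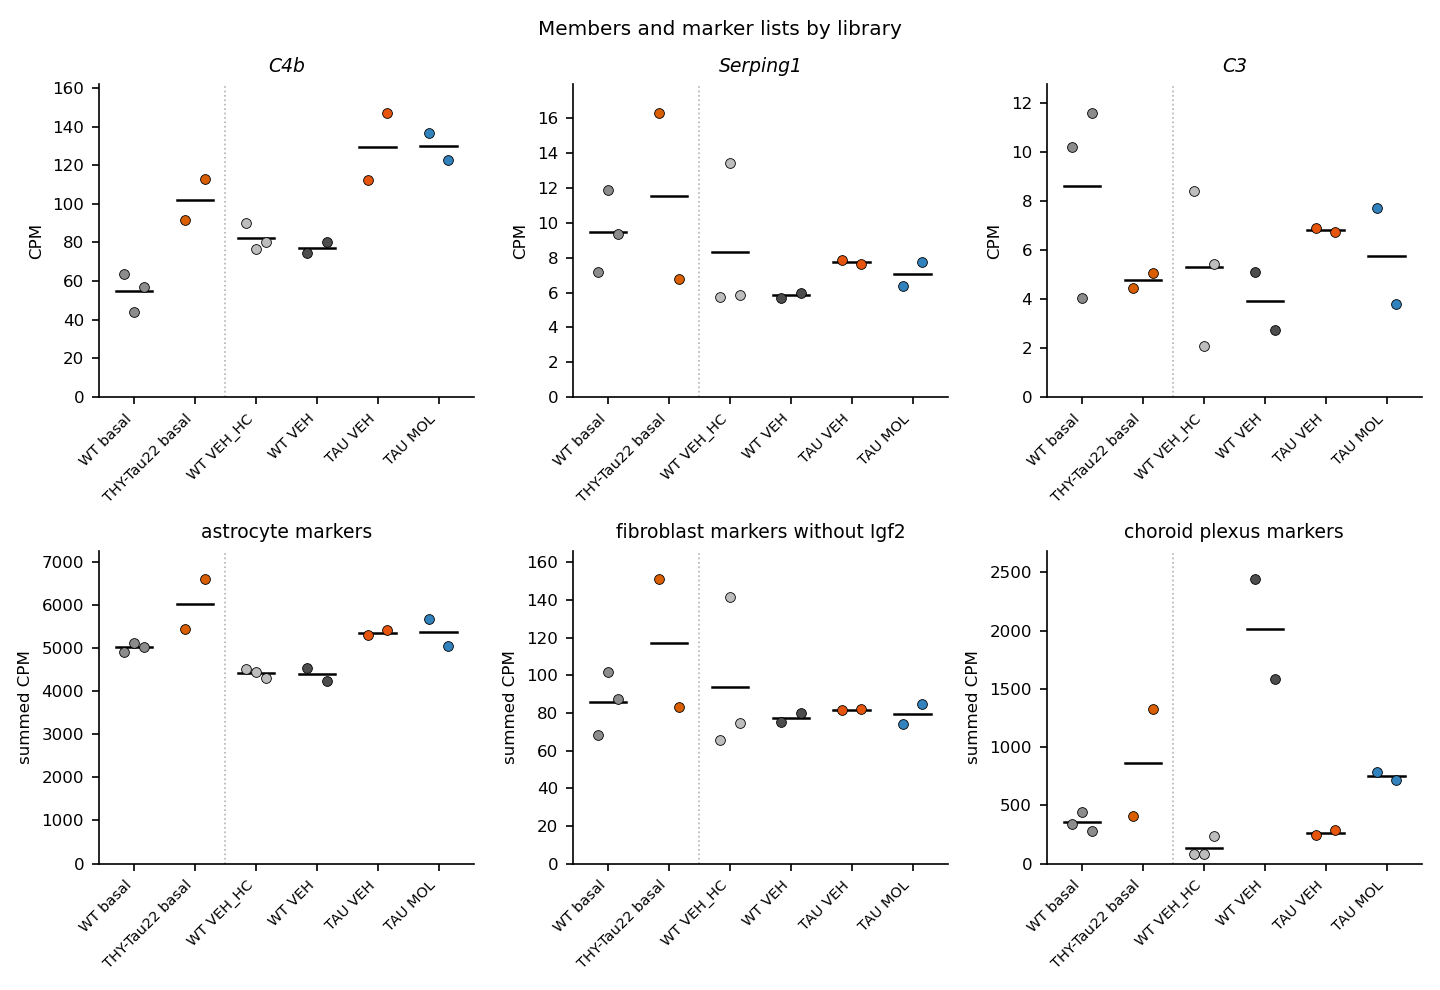
C4b, Serping1 and C3 (CPM, top) and the summed astrocyte, fibroblast and choroid plexus markers (CPM, bottom) in each library, with group means as bars. C4b and the astrocyte sum are higher in the THY-Tau22 libraries of each table, and in each table the library with the highest Serping1 is that with the highest fibroblast sum (151 CPM in the basal and 141 CPM in the learning table).

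The genes whose pattern over the 14 libraries was nearest were searched by the root mean square difference of centred log2 CPM among 11574 genes. Nearest to C4b was Gfap, at a difference of 0.11 against a median of 0.44 over all genes, followed by Xkr4 and Gucy1a2 at 0.19 each. C1qa was nearest to Ctsd, a lysosomal protease (0.06), C1qc (0.07) and Tmem176b (0.07), against a median of 0.20. C1qc was nearest to Trem2, a microglial lipid receptor, C1qa (0.07 each) and Tyrobp, the adaptor of Trem2 (0.08), against a median of 0.23. Ordered by distance from C1qb, C1qc was in place 23 and C1qa in place 79. C4b was in place 6242 for C1qb and 11201 for C1qa. Genes that vary little lie near many others by this measure.

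C4a, the close paralog of C4b, was at 0.374 to 1.09 CPM in every library and was called in none of the comparisons. It had a log2 fold change of 0.55 ± 0.29 (SE, adjusted p = 0.263, edgeR) in TAU VEH over WT VEH. Of the 5330 stretches of 50 bases in the C4b transcript, 35.2% occur identically in that of C4a, and reads from these cannot be assigned to either gene. The paper counted uniquely aligned reads only. Such reads were thus left out, so the levels of both genes may be too low.

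Beside the members, 60 other complement symbols were listed by role, of which 36 were tested in the learning table and 37 in the basal table. None was called in the basal comparison (edgeR), against 0.0245% of all genes. At an unadjusted p under 0.05 there were 4 of the 37, against 4.92% of all genes. In TAU VEH over WT VEH, 3 rose and 5 fell, against 3.61% and 10.8% of all genes, and the median of the 36 was -0.03. In TAU MOL over WT VEH, 1 rose and 2 fell, against 0.612% and 5.02% of all genes. None was called in TAU MOL over TAU VEH, with 2 at an unadjusted p under 0.05, against 6.33% of all genes. The recognition molecules and early proteases (7 tested in the learning table and 8 in the basal table) and the amplification and terminal components (3 tested in each) had no call in any of these.

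Among the other receptors, Itgax, the alpha chain of complement receptor 4, rose in both trained THY-Tau22 groups. It had 0.508 and 0.291 CPM in WT VEH and 1.92 and 1.55 CPM in TAU VEH, a log2 fold change of 2.11 ± 0.34 (SE, adjusted p = 0.00229, edgeR). In TAU MOL it had 2.18 and 1.62 CPM, with a log2 fold change of 2.23 ± 0.34 (adjusted p = 0.00993). In the basal table it had 0.351, 0.603 and 0.377 CPM in WT and 1.12 and 2.79 CPM in THY-Tau22, and a log2 fold change of 2.12 ± 0.43 did not pass (adjusted p = 0.235). Lrp1, a large endocytic receptor, fell by 0.54 in TAU VEH and by 0.39 in TAU MOL on the log2 scale. The other genes that rose in TAU VEH over WT VEH, named after their values were seen, were Itgb2, the beta chain of complement receptors 3 and 4 (0.46 ± 0.14, SE, adjusted p = 0.049, edgeR), and the regulator Csmd3 (0.44 ± 0.11, adjusted p = 0.021).

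Among the regulators, Sez6, a neuronal protein with complement control domains, fell by 0.80 in TAU VEH and by 0.54 in TAU MOL over WT VEH on the log2 scale. Its relative Sez6l2 fell by 0.48 in TAU VEH over WT VEH, and Sez6l and Susd4 fell by 0.38 each in TAU MOL over WT VEH_HC. The hippocampal neuron markers also summed to less in TAU VEH (13682 to 14103 CPM) than in WT VEH (18321 to 18377 CPM). Of these 10 markers 4 fell, namely Slc17a7, Camk2a, Wfs1 and Rbfox3, against 10.8% of all genes. The median log2 fold change of the list was 0.00. The part of neuron content in these values was not tested. Cd59a, which blocks the membrane attack complex, had 5.95 and 4.69 CPM in WT VEH, 2.69 and 3.43 CPM in TAU VEH and 1.83, 1.97 and 2.36 CPM in WT VEH_HC. It rose in WT VEH over WT VEH_HC by a log2 fold change of 1.37 ± 0.17 (SE, adjusted p = 0.00147, edgeR) and fell by 0.82 in TAU VEH against WT VEH. WT VEH, the group with the highest Cd59a, is also that with the highest choroid plexus sum, and the part of choroid plexus in it was not tested. Over WT VEH_HC, 4 of the 36 rose and 7 fell in TAU VEH, against 16.2% and 18.2% of all genes. In TAU MOL 3 rose and 7 fell, against 14% and 14.9% of all genes.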

How the data were processed

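Poly(A) RNA of the dorsal hippocampus was sequenced with a kit that does not keep the strand. Per the labels, the authors aligned reads to mm9 with TopHat2 2.0.10 and Bowtie2 2.1.0 and counted them with HTSeq 0.5.4p3. The deposited count columns hold whole reads per gene. The deposited normalized columns (a signal) are the counts multiplied by a single factor per library, and were not used in tests. The deposited fold changes and p-values of the authors' own comparisons were not used. All columns had a sample, and 138 lines without a gene were left out. Counts were tested with edgeR 4.0.16 (R 4.3.3; TMM scaling, filterByExpr, quasi-likelihood test, Benjamini-Hochberg adjustment), each table in a single fit of its groups, and the genotype difference in a joint fit. Alternatives were DESeq2 1.42.0, other scalings and filters, a replicate block, GC and length offsets, a choroid plexus covariate, fits of 2 groups and leaving out each library. The tests were tried on simulated counts. Exon lengths and positions came from the NCBIM37 annotation. The members and lists were chosen with earlier results of these data known. Named beside the 9 members were C4a, the called complement genes with the smallest adjusted p (at most 4 a comparison) and the 3 genes nearest in pattern. The genes nearest to C1qb are not reported here. Libraries held 24693713 to 52180305 reads. Genes with few reads, such as Cfb, have the least precise values.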

Additional observations from a re-analysis of the deposited data

How the results depend on the processing

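Counts of the 9 genes called are followed by the share of all genes called in the same fit. In basal mice 1 was called with DESeq2 (0.229%), with a filter of at least 1 count (0.508%) and with the replicate block (0.227%), against 0 as reported (0.0245%). In TAU VEH over WT VEH, 1 was called as reported (14.4%), 2 with DESeq2 (18.6%), 3 with scaling by library size alone (21.4%), 3 with at least 1 count (11.1%), 2 with GC and length offsets (2.64%), 0 with the choroid plexus covariate (0%) and 4 in the fit of only the 2 groups (21%). In TAU MOL over WT VEH, 1 was called (5.63%), 2 with library size alone (6.44%), 2 with at least 1 count (6.13%) and 0 with the covariate (0.0119%). In WT VEH over WT VEH_HC, 1 was called (8.4%), 3 with DESeq2 (13.8%), 0 with median-of-ratios factors (7.98%), 4 with at least 1 count (10.4%), 2 with the offsets (4.59%), 0 with the covariate (0%) and 0 with only the 2 groups (1.89%). Over WT VEH_HC, against 4 each (34.4% and 28.9%), 2 were called in TAU VEH and 0 in TAU MOL with the covariate (13.1% and 0.0951%). There were 5 in both with DESeq2 (36.1% and 33%), library size alone (38.8% and 33.2%) and the offsets (8.44% and 8.76%). With at least 1 count there were 6 and 5 (24.2% and 21.3%), and with only the 2 groups 4 and 5 (30.1% and 23.8%). The calls lost with the covariate in TAU VEH had log2 fold changes of 0.51 (C1qb) and 0.16 (C1qc). Those lost in TAU MOL had 1.09 (C3ar1), 0.60 (C4b), 0.33 (C1qb) and 0.01 (C1qc). Leaving out 1 WT basal library gave 0 calls in basal mice (0.00619% to 0.031%) and 0 in the joint fit (0.0822% to 0.164%). Leaving out 1 WT VEH_HC library gave 0 to 1 in WT VEH over WT VEH_HC (3.67% to 16.7%). It gave 3 to 4 in TAU VEH (31% to 35.8%) and 3 to 4 in TAU MOL (25.6% to 31.5%), both over WT VEH_HC. Leaving out a library of any other group left 1 in that group, and calls of those fits are not counted. The cause of these differences was not tested. C1qc in WT VEH over WT VEH_HC turned to -0.065 with the covariate. Over leaving out each library, Serping1 ranged from -0.32 to 0.42 in TAU VEH and from -0.46 to 0.28 in TAU MOL over WT VEH_HC. Over all fits of single genes, 924 of 983 kept the side of the threshold and, where an interval left out 0, the direction. In 81 of these the sign turned while both 95% intervals held 0, 26 of them in TAU MOL over TAU VEH.

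Samples with the same replicate number correlated weakly in their deviations from the group means (-0.16 to 0.24), and the labels do not say that a number marks a shared litter or batch, so the numbers were not treated as pairs. The replicate block changed the call of 1 gene, C4b in basal mice (adjusted p = 0.0066), where calls over all genes went from 4 to 37, and it moved the calls of WT VEH over WT VEH_HC from 1413 to 3000. Over all genes, the offsets left 443 calls in TAU VEH and 31 in TAU MOL over WT VEH, against 2423 and 947, and the covariate left 0 and 2. The filter of at least 1 count gave 125 calls in basal mice, where DESeq2 gave 41, and 233 in TAU MOL over TAU VEH, where DESeq2 gave 54, against 4 and 0. Library size alone turned the split of calls in TAU VEH over WT VEH from 608 higher and 1815 lower to 2578 and 1020, and in TAU MOL from 103 and 844 to 757 and 326. It moved the median of all genes by 0.15 and 0.12. With 2 or 3 libraries a group and few reads for Cfb, C5ar1 and C3ar1, only large changes of these genes could be called.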

Other observations

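Cfd, which encodes factor D of the alternative pathway and was singled out after its values were seen, had 326 reads (12.3 CPM) in the second TAU VEH library and 0 reads in each of the other 8 learning libraries, where a count of 0 allows up to 3 reads.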
